A study of Mus musculus with 6 samples.

Results

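The sulfated glycosaminoglycan synthesis machinery is the set of enzymes and transporters that build the sulfated sugar chains of proteoglycans. A list of 40 genes of chain linkage, chondroitin and heparan sulfate polymerisation, sulfation and sulfate or sugar supply was followed by symbol, out of 55487 genes in the deposited tables; all 40 were found, and 39 had enough reads to be tested. The cells were chondrocytes from knee cartilage of mice of the strain C57B/6, which were kept for 24 h with extracellular vesicles, small membrane particles released by cells, dosed at 10 µg/ml by their protein. Macrophages not labelled as given LPS were the vesicle source for 3 libraries (M-EV), and macrophages given LPS, a component of bacterial outer membranes, for the other 3 (M-LPS-EV). Vesicles were present in both groups, so each difference below compares vesicle types, and cells without vesicles were not analysed here. The labels do not give the age or number of mice, nor whether the libraries of a group came from separate cultures, and the p-values speak only for the variation among these libraries, which may be technical.

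Cartilage resists compression because aggrecan carries many chondroitin sulfate chains whose negative charges hold water. Each chain begins on a serine of the core protein with a linker of xylose, galactose, galactose and glucuronic acid. It is then extended either as chondroitin, with alternating glucuronic acid and N-acetylgalactosamine, or as heparan, with glucuronic acid and N-acetylglucosamine, and is sulfated in the Golgi. The sulfate donor PAPS is made in the cytosol from imported sulfate, and most of the UDP-sugars are made in the cytosol and carried into the secretory pathway. Inherited loss of several of these genes causes skeletal dysplasia in mice or people.

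Cells given M-LPS-EV had lower transcript levels of the main sulfate supply genes and of 4 of 6 linker genes (2 of 6 with effective transcript lengths in the model). Csgalnact1, which starts chondroitin chains, was lower too, while its paralogue Csgalnact2 did not reach the threshold given below. Among the genes that were higher were the chondroitin synthase gene Chsy1 and the heparan sulfate genes Hs6st2 and Hs2st1. Hs2st1 did not reach the threshold with effective transcript lengths. All these differences were small. The sulfate donor synthase Papss2 fell to 0.805 of its M-EV level (log2 fold change -0.31, SE 0.02), the sulfate transporter Slc26a2 to 0.800 (-0.32, SE 0.02) and the nucleotide sugar transporter Slc35d1 to 0.788 (-0.34, SE 0.03), whereas the heparan sulfate 6-O-sulfotransferase Hs6st2 rose to 1.23 of it (0.30, SE 0.03). Fold changes set M-LPS-EV against M-EV in edgeR's quasi-likelihood test (n = 3 libraries per group), and a call means an adjusted p below 0.05 across every tested gene. Of the 39 tested members 13 were called lower, 6 higher and 20 in neither direction, that is 33.3% lower and 15.4% higher. Among all 14604 tested genes 31.6% were called, 15.2% lower and 16.4% higher, so the members' share of higher calls lay near the background. Well-expressed genes are called more easily, and among the 7031 genes with a mean of at least 20 CPM (counts scaled to a common library size, as edgeR gives them) 42.9% were called, 22.7% lower and 20.2% higher; this comparison was chosen after the values were seen. Of the 34 members above that level 38.2% were called lower and 14.7% higher. Counts per role or marker list below cover few genes and are to be read beside these shares of all genes. The median log2 fold change of the tested members was -0.09, beside 0.003 for all tested genes. Read against a change of at least 1.2-fold, which 7.79% of all genes passed, 3 members were called, namely Papss2, Slc26a2 and Slc35d1, all lower. This share of the tested members lay near the share of all genes. The libraries of the groups did not overlap for 24 members, 17 of them lower and 7 higher with M-LPS-EV; of all tested genes 42.2% did not overlap, 20.6% lower and 21.5% higher. With effective transcript lengths as an offset in the edgeR model, 10 members were called lower and 3 higher, and 19.6% of all genes were called.

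The libraries held 20239626 to 25712667 expected counts. Markers of chondrocytes were abundant, with a summed level of 49654 to 50171 TPM (a share of all transcripts that accounts for transcript length) with M-EV and 41362 to 42314 TPM with M-LPS-EV, and 7 of those 8 markers fell. Of 8 macrophage markers 3 were called higher; their summed level was 7.21 to 10.1 TPM with M-EV and 10.7 to 11.7 TPM with M-LPS-EV, with Ptprc and Fcgr1 too low for the test. Of 6 fibroblast markers 1 rose and 3 fell, and their sum was 1085 to 1091 TPM with M-EV and 1196 to 1219 TPM with M-LPS-EV. The marker that rose was Dcn, from a mean of 520 TPM to 712 TPM, a larger step than that of the sum. Dcn is also among the core proteins below. The part of these marker differences in the results below was not tested. In bulk samples, fewer cells of a type and less RNA per cell cannot be told apart.

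By level per transcript length, a few members stood far above the rest. Papss2 was the most abundant at 871 ± 16.1 TPM with M-EV (mean ± SD, n = 3), followed by Chst11 (213 ± 1.90 TPM) and Ugdh (208 ± 9.59 TPM), which did not differ beyond their spread. Xylt1 stood at 188 ± 1.51 TPM, and Uxs1 (166 ± 1.36 TPM) and Slc26a2 (166 ± 1.54 TPM) were alike within their spread. At the low end were the sulfotransferase genes Ust, Chst3, Chst7 and Chst15, between 1.76 and 2.92 TPM. Chst13 had 0 counts in the M-EV libraries and 3 in all in the M-LPS-EV libraries, under the limit of the test. Of the 10 members at 100 TPM or more with M-EV, 7 were called lower, 1 higher (Ugdh) and 2 were not called (Uxs1 and Ext2). The share called among all genes at that level was not computed, and abundant genes are called more easily.

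**Figure D1:**
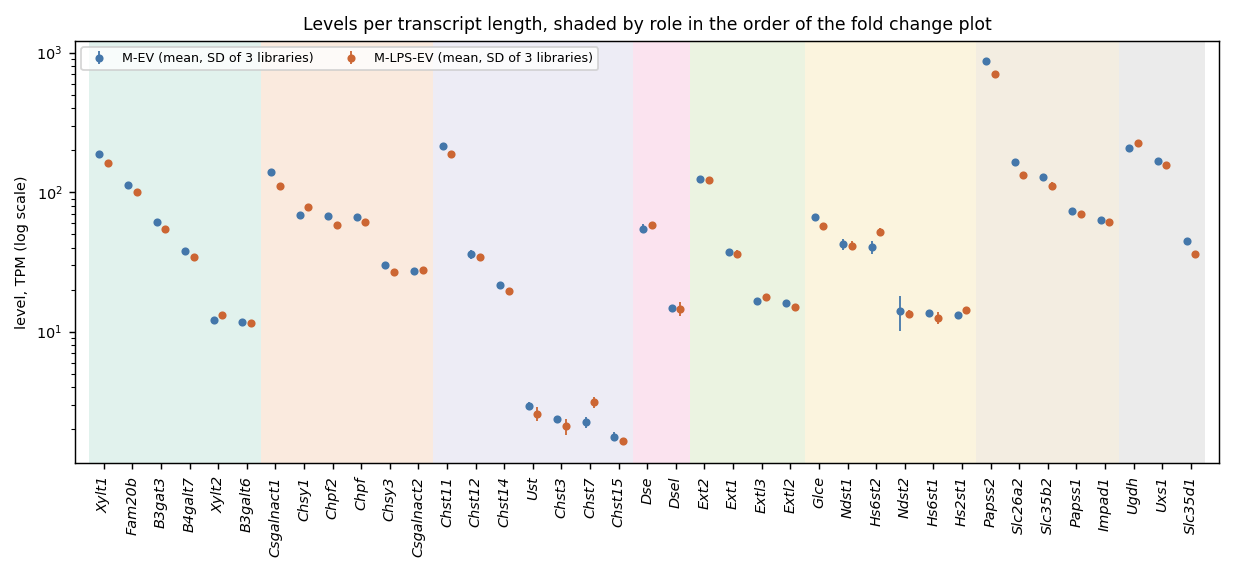
Levels of the 39 tested members in TPM (vertical axis, log scale), with points for the mean of 3 libraries and bars for the SD, M-EV in blue and M-LPS-EV in orange; shading separates the roles. Papss2 stands highest at 871 and 699 TPM, and the lowest sulfotransferase genes lie under 4 TPM.

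Start regions are shown for Papss2, because its transcripts begin at separate places, and beside it for Chst11 and Chsy1, abundant or called members that moved in opposite directions. The sequences are the 250 bases before RefSeq start sites in GRCm38.p6, 5′ to 3′ on the plus strand, where all of these genes lie. Capitals mark matches, on either strand, to GGGCGG (the GC box), CCAAT (the CCAAT box), TATAAA (the TATA box) or ACAAAG (a core that SOX proteins can bind); none of these letters overlap between motifs.
Papss2 upstream start, chr19:32595465-32595714: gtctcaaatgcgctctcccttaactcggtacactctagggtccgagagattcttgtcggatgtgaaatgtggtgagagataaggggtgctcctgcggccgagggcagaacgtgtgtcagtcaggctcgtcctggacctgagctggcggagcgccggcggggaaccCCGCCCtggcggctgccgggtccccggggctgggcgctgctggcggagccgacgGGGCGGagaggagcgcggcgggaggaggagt
Papss2 downstream start, chr19:32619755-32620004: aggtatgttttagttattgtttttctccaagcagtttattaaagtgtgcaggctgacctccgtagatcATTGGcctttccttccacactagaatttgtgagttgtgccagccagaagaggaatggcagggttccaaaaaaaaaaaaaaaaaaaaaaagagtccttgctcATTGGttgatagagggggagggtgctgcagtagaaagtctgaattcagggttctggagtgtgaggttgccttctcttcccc
Chst11, chr10:82985247-82985496: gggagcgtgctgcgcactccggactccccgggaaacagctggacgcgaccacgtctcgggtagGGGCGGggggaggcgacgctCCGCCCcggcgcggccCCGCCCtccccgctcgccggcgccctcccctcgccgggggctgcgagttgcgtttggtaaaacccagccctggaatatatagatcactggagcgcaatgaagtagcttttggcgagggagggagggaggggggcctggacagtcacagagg
Chsy1, chr7:66109242-66109491: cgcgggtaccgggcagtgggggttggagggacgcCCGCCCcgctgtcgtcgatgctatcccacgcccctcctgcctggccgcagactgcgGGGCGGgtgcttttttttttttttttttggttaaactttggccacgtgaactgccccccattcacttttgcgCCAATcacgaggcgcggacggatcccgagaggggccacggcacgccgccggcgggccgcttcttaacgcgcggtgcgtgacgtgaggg
The Papss2 upstream window was 67.6% G or C and held 2 GC boxes, while the downstream window was 43.2% G or C and held 2 CCAAT boxes and no GC box. Chst11 had 3 GC boxes, and Chsy1 had 2 GC boxes and 1 CCAAT box. Neither TATAAA nor ACAAAG was present in these 4 windows. Windows were at hand for 32 of the 40 members; 78.1% of these members held a GC box in at least 1 window, against 35.4% of all 27025 genes with a window. For the CCAAT box the shares were 40.6% and 37.5%, for TATAAA 3.12% and 14.3%, and for ACAAAG 3.12% and 18.6%. The 27025 genes were not limited to those expressed here or matched to the members. These gaps therefore cannot be read as particular to this pathway. A match describes letters only and is not a shown binding site.

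Of the 5 genes of sulfate uptake and activation 3 fell and none rose. Papss2 encodes the bifunctional enzyme that makes PAPS and is the main form in cartilage; its gene (ENSMUSG00000024899) lies on chromosome 19 from 32595790 to 32667187 in mm10. Its level was 1432, 1476 and 1471 CPM in the M-EV libraries and 1185, 1158 and 1181 CPM in the M-LPS-EV libraries (edgeR adjusted p = 2.3e-13). Every M-LPS-EV library lay below every M-EV library. Slc26a2 (ENSMUSG00000034320, chromosome 18 from 61192919 to 61211612) encodes the sulfate transporter of the chondrocyte surface, whose loss causes diastrophic dysplasia. Its values were 709, 720.0 and 722 CPM with M-EV and 579, 566 and 577 CPM with M-LPS-EV (edgeR adjusted p = 5.2e-13), again without overlap. Slc35b2, which carries PAPS into the Golgi, had 91.6, 90.7 and 89.5 CPM with M-EV and 83.7, 78.6 and 84.5 CPM with M-LPS-EV (edgeR: log2 fold change -0.14, SE 0.04, adjusted p = 0.0035). The other PAPS synthase, Papss1, stood at 100.1 ± 1.23 and 96.4 ± 3.35 CPM and was not called (-0.06, 95% interval -0.12 to 0.01). Impad1, a Golgi phosphatase that clears the by-product of sulfation, stood at 229 ± 6.32 and 225 ± 4.76 CPM and was not called either (-0.03, 95% interval -0.08 to 0.02). The summed level of these 5 genes went from 1291 to 1312 TPM with M-EV to 1051 to 1087 TPM with M-LPS-EV, most of it Papss2.

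Papss2 was read from both of its start regions, which lie 24215 bases apart in the annotation. The transcript from the downstream start, whose window lacks a GC box, held 68.7% of the gene's TPM with M-EV and 67.8% with M-LPS-EV. Its level was 598 ± 4.82 TPM with M-EV and 474 ± 6.06 TPM with M-LPS-EV, a log2 ratio of -0.34. A shorter annotated transcript from the upstream start stood at 269 ± 11.2 and 223 ± 5.41 TPM, a log2 ratio of -0.27. Both were lower in every M-LPS-EV library. The transcripts also differ in length (3618 and 2047 bases), and the split of shared reads between them is RSEM's estimate, so these values are descriptions with no test.

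UDP-sugar supply moved both ways. Slc35d1 (ENSMUSG00000028521, chromosome 4 from 103170649 to 103215164) encodes the endoplasmic reticulum transporter of UDP-glucuronic acid and UDP-N-acetylgalactosamine, which chondroitin synthesis in cartilage needs. It measured 97.4, 96.8 and 97.3 CPM with M-EV and 76.5, 75.9 and 77.4 CPM with M-LPS-EV (edgeR adjusted p = 7.2e-09), the lowest log2 fold change of the tested members. Ugdh, the dehydrogenase that makes UDP-glucuronic acid, was higher, with 279, 279.7 and 279 CPM against 305, 317 and 314 CPM (edgeR: 0.16, SE 0.02, adjusted p = 3.2e-06). The groups overlapped for neither gene. For Ugdh the call ended for TPM in limma-trend (0.12, adjusted p = 0.063). Uxs1, which converts that product to UDP-xylose for the linker, stood at 118 ± 0.950 and 113 ± 4.29 CPM and was not called (edgeR adjusted p = 0.14), with the M-LPS-EV libraries all lower.

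**Figure D2:**
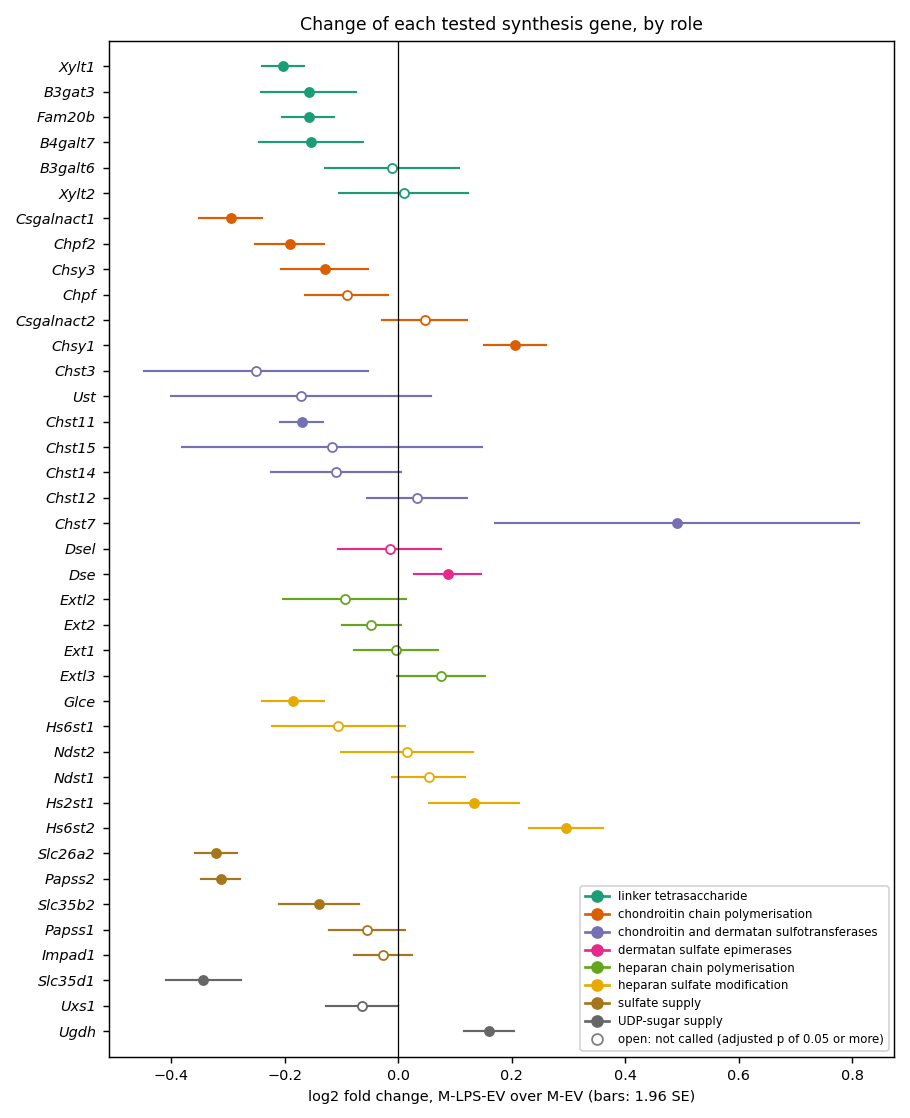
Log2 fold change of M-LPS-EV over M-EV for the 39 tested members (horizontal axis), grouped and coloured by role, with bars for the 95% interval; filled points were called at an adjusted p under 0.05. The 5 sulfate supply genes all lie below 0, and the heparan chain polymerisation genes are all open points near 0.

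In the linker group 4 of 6 genes fell and none rose. Xylt1 (ENSMUSG00000030657, chromosome 7 from 117380979 to 117673580), the xylosyltransferase that places the first sugar on the core protein, had 932, 948 and 946 CPM with M-EV and 831, 822 and 799.6 CPM with M-LPS-EV (edgeR: log2 fold change -0.20, SE 0.02, adjusted p = 3.0e-09). Fam20b, the kinase that phosphorylates this xylose, had 272, 271 and 276 CPM against 244, 239.7 and 249.9 CPM (edgeR: -0.16, SE 0.02, adjusted p = 6.8e-06). B3gat3, which adds the glucuronic acid, had 45.2, 44.3 and 47.7 CPM against 40.4, 40.4 and 42.3 CPM (edgeR: -0.16, SE 0.04, adjusted p = 0.0056). For all 3 genes the M-LPS-EV libraries lay below the M-EV libraries. B4galt7, which adds the first galactose, had 41.6, 39.1 and 40.5 CPM against 38.6, 35.8 and 34.7 CPM (edgeR: -0.15, SE 0.05, adjusted p = 0.012), with a gap between the groups smaller than their own spread. Xylt2, the second xylosyltransferase, stood at 21.3 ± 1.01 and 21.4 ± 0.158 CPM and B3galt6, which adds the second galactose, at 20.1 ± 0.658 and 19.9 ± 0.855 CPM; neither was called, and 95% intervals of their log2 fold changes reached from -0.10 to 0.12 and from -0.13 to 0.11. With effective transcript lengths in the model the calls of B3gat3 (-0.14, edgeR adjusted p = 0.084) and B4galt7 (-0.14, edgeR adjusted p = 0.13) ended. That of B4galt7 also ended with DESeq2 (-0.16, adjusted p = 0.060), for TPM in limma-trend (-0.15, adjusted p = 0.10), and in edgeR when M-EV replicate 1 (-0.13, p 0.076 after adjustment), M-LPS-EV replicate 2 (-0.14, 0.054) or M-LPS-EV replicate 3 (-0.12, 0.065) was left out.

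Among the chondroitin polymerisation genes 3 fell and 1 rose. Csgalnact1 (ENSMUSG00000036356, chromosome 8 from 68356781 to 68735146), an N-acetylgalactosaminyltransferase that commits a linker to chondroitin, had 245, 255 and 249 CPM with M-EV and 213, 195 and 203 CPM with M-LPS-EV (edgeR: log2 fold change -0.30, SE 0.03, adjusted p = 6.6e-09). All M-LPS-EV libraries were lower, and the spread among them was wider than among the M-EV libraries. Chsy1 (ENSMUSG00000032640, chromosome 7 from 66109515 to 66173798), a chondroitin synthase that extends the chain, rose from 153, 155 and 162 CPM to 182, 178 and 182 CPM (edgeR: 0.21, SE 0.03, adjusted p = 1.7e-06). Its paralogue Chsy3 went the other way, from 59.1, 60.7 and 60.9 CPM to 56.8, 55.4 and 52.8 CPM (edgeR: -0.13, SE 0.04, adjusted p = 0.012). The partner polymerising factor Chpf2 fell from 129.6, 136 and 133 CPM to 118, 114 and 118 CPM (edgeR: -0.19, SE 0.03, adjusted p = 1.9e-05). For these 4 genes the groups did not overlap. Chpf, the related factor, stood at 102 ± 5.26 and 95.9 ± 2.48 CPM and was not called (-0.09, edgeR adjusted p = 0.065). Without M-EV replicate 2 it was called (-0.13, edgeR adjusted p = 0.013), as it was without M-LPS-EV replicate 2 (-0.11, edgeR adjusted p = 0.042), with upper-quartile scaling (-0.11, edgeR adjusted p = 0.036) and with no count filter (-0.10, edgeR adjusted p = 0.034). Csgalnact2 stood at 52.8 ± 0.610 and 54.6 ± 1.07 CPM and was not called (0.05, 95% interval -0.03 to 0.12). The call of Chsy3 ended without M-LPS-EV replicate 3 (-0.10, edgeR adjusted p = 0.072), with effective lengths in the model (-0.13, edgeR adjusted p = 0.082) and for TPM in limma-trend (-0.14, adjusted p = 0.094).

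The sulfotransferases of chondroitin and dermatan were mostly not called, and the leading form fell. Chst11 (ENSMUSG00000034612, chromosome 10 from 82985498 to 83195900) adds the 4-O-sulfate that dominates cartilage chondroitin. It had 647, 648 and 655 CPM with M-EV and 586, 566 and 579 CPM with M-LPS-EV (edgeR: log2 fold change -0.17, SE 0.02, adjusted p = 1.2e-07), without overlap. Chst12, a second 4-O-sulfotransferase, stood at 35.9 ± 1.52 and 36.8 ± 0.629 CPM and was not called (0.03, 95% interval -0.06 to 0.12). Its sign turned with effective lengths in the model (-0.04) and for TPM in limma-trend (-0.05). Of the 6-O-sulfotransferases, Chst3 had 8.12, 8.03 and 7.71 CPM against 6.80, 6.38 and 6.91 CPM and was not called (edgeR: -0.25, SE 0.10, adjusted p = 0.061), although the groups did not overlap; with upper-quartile scaling it was called (-0.26, adjusted p = 0.047). Chst7 had 2.51, 2.86 and 2.35 CPM against 3.33, 3.55 and 3.97 CPM and was called higher (edgeR: 0.49, SE 0.16, adjusted p = 0.023) on only 180 and 236 counts per group. Its call ended in edgeR when M-EV replicate 1 (0.47, p 0.067 after adjustment), M-EV replicate 3 (0.43, 0.092), M-LPS-EV replicate 2 (0.50, 0.050) or M-LPS-EV replicate 3 (0.42, 0.098) was left out. It also ended in DESeq2 (0.49, adjusted p = 0.085), in edgeR with effective lengths (0.49, 0.068) and for TPM in limma-trend (0.35, 0.051). Chst14, which sulfates dermatan at the 4-O position (-0.11, edgeR adjusted p = 0.16), Chst15, which adds a second sulfate to 4-sulfated residues (-0.12, edgeR adjusted p = 0.56), and Ust, the uronyl 2-O-sulfotransferase (-0.17, edgeR adjusted p = 0.29), were not called. Chst15 overlaps the more abundant Fgfr2 on the same strand, so its 4.70 and 4.35 CPM depend on how reads were assigned.

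Dse and Dsel turn glucuronic into iduronic acid, which makes dermatan sulfate out of chondroitin. Dse had 127, 128 and 121 CPM with M-EV and 133, 135 and 132 CPM with M-LPS-EV and was called higher (edgeR: log2 fold change 0.09, SE 0.03, adjusted p = 0.030). This was the smallest of the called differences among the members. The edgeR call ended when M-EV replicate 3 (0.06, p 0.20 after adjustment), M-LPS-EV replicate 1 (0.09, 0.050) or M-LPS-EV replicate 2 (0.08, 0.080) was left out. It ended as well with upper-quartile scaling (0.07, 0.074), no count filter (0.08, 0.058) or effective lengths (0.11, 0.20), in DESeq2 (0.08, 0.076) and for TPM in limma-trend (0.09, 0.32). Dsel stood at 32.3 ± 0.490 and 31.9 ± 0.911 CPM (-0.02, 95% interval -0.11 to 0.08).

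Heparan chain building was the role in which no member was called. Ext1 and Ext2, the subunits of the heparan polymerase, stood at 66.3 ± 1.43 and 163 ± 1.08 CPM with M-EV and at 66.2 ± 1.92 and 158 ± 2.58 CPM with M-LPS-EV. The 95% intervals of their log2 fold changes were -0.08 to 0.07 and -0.10 to 0.004. Extl3, which starts heparan chains, had 0.07 (edgeR adjusted p = 0.17) and Extl2, which can end chain growth, -0.09 (edgeR adjusted p = 0.21). The M-LPS-EV libraries all lay below the M-EV libraries for Ext2 and Extl2, an ordering seen in 20.6% of all tested genes. At an unadjusted p under 0.05 the edgeR test called none of the 4 either, and DESeq2 called 0 of 4 at its adjusted threshold.

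In heparan sulfate modification 2 genes rose and 1 fell. Hs6st2 (ENSMUSG00000062184, chromosome X from 51387212 to 51681856), a 6-O-sulfotransferase, had 85.0, 88.1 and 90.1 CPM with M-EV and 107, 108 and 108 CPM with M-LPS-EV (edgeR adjusted p = 9.4e-08). Hs2st1, the 2-O-sulfotransferase, rose from 44.3, 45.5 and 45.6 CPM to 49.2, 48.2 and 51.2 CPM (edgeR: log2 fold change 0.13, SE 0.04, adjusted p = 0.013). Glce, the epimerase that makes iduronic acid in heparan, fell from 159, 163 and 160.1 CPM to 143, 143 and 138 CPM (edgeR: -0.19, SE 0.03, adjusted p = 8.2e-06). In none of these 3 genes did the groups overlap. The N-deacetylase and N-sulfotransferase genes Ndst1 (0.05, edgeR adjusted p = 0.24) and Ndst2 (0.01, edgeR adjusted p = 0.89) were not called, and both turned sign with effective lengths in the model (-0.02 and -0.03). Ndst1 overlaps the more abundant ribosomal protein gene Rps14 on the opposite strand, and the strand setting of the counting is not given in the sources used here. Hs6st1, a second 6-O-sulfotransferase, had 26.8, 27.8 and 27.8 CPM against 25.2, 28.0 and 23.1 CPM and was not called (-0.11, edgeR adjusted p = 0.19). Leaving out M-LPS-EV replicate 2 gave a call in the lower direction (-0.18, edgeR adjusted p = 0.026). The call of Hs2st1 ended without M-EV replicate 1 (0.12, edgeR adjusted p = 0.066), with DESeq2 (0.13, adjusted p = 0.077), with effective lengths (0.13, edgeR adjusted p = 0.082) and for TPM in limma-trend (0.11, adjusted p = 0.27).

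**Figure D3:**
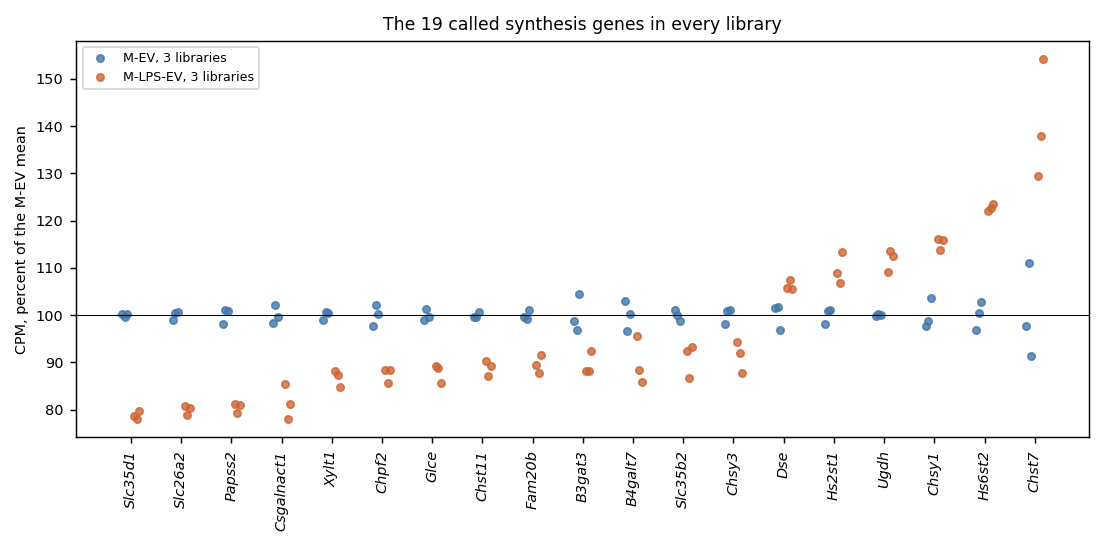
The 19 called members in every library, as CPM in percent of the M-EV mean (vertical axis), ordered by log2 fold change; blue points are the 3 M-EV and orange points the 3 M-LPS-EV libraries. In each gene all orange points lie on the same side of all blue points, from Slc35d1 at the left, at 0.788 of its M-EV level, to Chst7 at the right, which has the widest spread.

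Several members are paralogues with the same reaction, so their balance was compared. In each of 9 related pairs the share of the pair's summed TPM was compared between groups by an exact permutation test of the log2 ratio over the 6 libraries, two-sided; with 3 against 3 the smallest p it can give is 0.10, so no pair can pass 0.05. Hs6st2 made up 74.0%, 73.1% and 76.4% of the Hs6st1 and Hs6st2 total with M-EV and 79.7%, 80.1% and 81.6% with M-LPS-EV. Chsy1 made up 69.9%, 69.0% and 70.5% of the Chsy1 and Chsy3 total with M-EV and 74.0%, 74.1% and 75.6% with M-LPS-EV. The share of Csgalnact1 beside Csgalnact2 was 83.9%, 83.9% and 83.4% with M-EV and 79.7%, 79.9% and 79.8% with M-LPS-EV. In these 3 pairs the libraries of the groups did not overlap, and the log2 ratio moved by 0.49 toward Hs6st2, by 0.34 toward Chsy1 and by -0.38 away from Csgalnact1 (exact p = 0.10 each, 0.15 after adjustment over the 9 pairs). Papss2 beside Papss1 went from 92.3% ± 0.274 to 90.9% ± 0.239, Xylt1 beside Xylt2 from 94.0% ± 0.340 to 92.5% ± 0.362, and Chst11 beside Chst12 from 85.7% ± 0.775 to 84.5% ± 0.451, all with exact p = 0.10. The pairs Chpf2 and Chpf (exact p = 0.20), Dse and Dsel (exact p = 0.30) and Ndst1 and Ndst2 (exact p = 1.0) overlapped between groups. Every pair without overlap held a called member, so its gap is not a separate result. How often ratios of other gene pairs lack overlap was not computed.

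**Figure D4:**
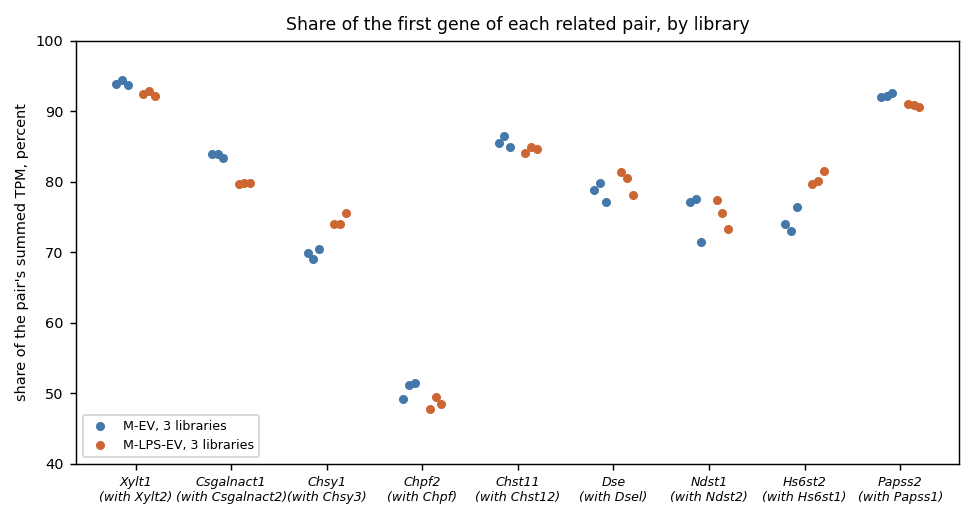
Share of the first-named gene in the summed TPM of each of 9 related pairs (vertical axis, percent, drawn from 40 to 100), with points for the 3 M-EV libraries in blue and the 3 M-LPS-EV libraries in orange. Hs6st2 and Chsy1 take a larger share with M-LPS-EV, Csgalnact1, Xylt1 and Papss2 a smaller share, and the points of Ndst1 overlap.

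For 28 of the 39 tested members the leading transcript held at least 75% of the gene's TPM with M-EV, and for 6 it held under 50%. In Ext1 the leading transcript, at 45.9% with M-EV, was annotated as a target of RNA decay, and the protein-coding one held 31.3%. In Uxs1 a transcript with the same annotation held 46.0%. In 4 members the share of a transcript differed by over 3 points without overlap between the groups. Among them was Xylt2, whose main protein-coding transcript held 94.6% with M-EV and 85.8% with M-LPS-EV. These shares are RSEM's estimates and carry no test.

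The chains these enzymes make sit on core proteins, and those genes moved in both directions. Of 26 tested core protein genes (of 28 listed) 12 rose and 9 fell, a called share of 80.8%. The share was 31.6% of all tested genes and 42.9% of those at 20 CPM or more. Acan, the core protein of aggrecan, fell from 10809, 10823 and 10801 CPM to 8339, 8280 and 8153 CPM (log2 fold change -0.39, SE 0.01), and Col9a2, a chain of the cartilage collagen that can carry chondroitin sulfate, fell by 0.37 (SE 0.02) on the log2 scale. Sdc4, a cell surface core protein for heparan sulfate, rose from 322 ± 3.58 to 729 ± 11.7 CPM (1.18, SE 0.02), and Dcn, which carries a chondroitin or dermatan chain, rose by 0.46 (SE 0.02).

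Upstream of the members, of 13 genes of hexosamine and nucleotide sugar synthesis 6 fell and 3 rose. This called share of 69.2% stands beside 31.6% of all tested genes and 42.9% of those at 20 CPM or more. Gfpt1, the entry enzyme of the hexosamine pathway that feeds the N-acetylated UDP-sugars, fell from 396 ± 2.34 to 318 ± 7.87 CPM (log2 fold change -0.32, SE 0.02). The sugar phosphate enzymes Pgm1 (0.57, SE 0.02) and Gpi1 (0.61, SE 0.02), which also serve glycolysis or glycogen metabolism, rose. Of 12 tested further genes of chain synthesis and sulfation (of 19 listed; 7 were too low) 2 rose and 3 fell, a called share of 41.7%: the xylose phosphatase Pxylp1, which reverses the step of Fam20b, rose by 0.53 (SE 0.12) and Chst2, an N-acetylglucosamine sulfotransferase, by 0.21 (SE 0.07), while the heparan 3-O-sulfotransferase Hs3st3b1 fell by 0.43 (SE 0.10) and Tmem165, a Golgi ion transporter, by 0.13 (SE 0.03) on the log2 scale. The third that fell was Hs3st3a1 (-0.63, SE 0.23), another heparan 3-O-sulfotransferase, named after its values were seen. It rested on only 165 counts with M-EV and 99 with M-LPS-EV. Its call ended with effective lengths, in DESeq2, and in edgeR when M-EV replicate 2 or 3 or M-LPS-EV replicate 1 or 2 was left out. The call of Chst2 ended with effective lengths (0.21, edgeR adjusted p = 0.088), in DESeq2 (0.21, 0.12), for TPM in limma-trend (0.15, 0.27), and in edgeR when M-EV replicate 2 (0.17, 0.10), M-LPS-EV replicate 1 (0.20, 0.064) or M-LPS-EV replicate 2 (0.20, 0.063) was left out. For TPM in limma-trend none of the 3 lower calls was left, with Hs3st3b1 at -0.33 (adjusted p = 0.059) and Tmem165 at -0.13 (0.053), and with effective lengths Tmem165 was not called either (-0.12, edgeR adjusted p = 0.077). On the breakdown side 5 of 19 genes rose and 2 fell, a called share of 36.8%, near the 31.6% of all tested genes and the 42.9% of those at 20 CPM or more. Sulf2, which removes 6-O-sulfate from heparan sulfate outside the cell, rose by 0.22 (SE 0.04), the lysosomal galactosidase Glb1 rose by 0.18 (SE 0.05), and Hyal1, a lysosomal hyaluronidase, fell by 0.50 (SE 0.08) on the log2 scale. The median log2 fold changes of these 4 lists were 0.08 for core proteins, -0.09 for hexosamine and nucleotide sugars, -0.07 for further chain synthesis and 0.07 for breakdown, beside -0.09 for the members. All lists share the same libraries, and the lists were not tested against each other.

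**Figure D5:**
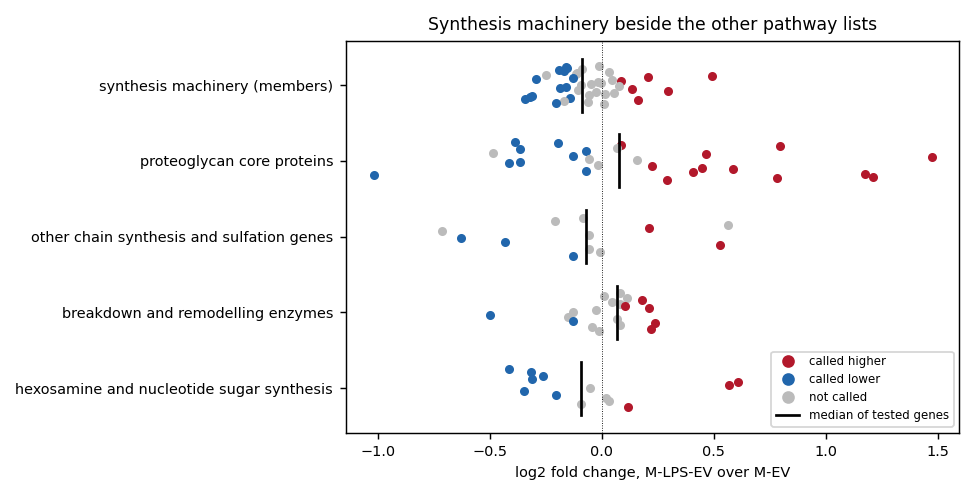
Log2 fold change of M-LPS-EV over M-EV (horizontal axis) of each tested gene in the synthesis machinery and in 4 lists of the wider pathway, red where called higher, blue where called lower and grey where not called; black bars are medians. The members lie between -0.34 and 0.49, and the core proteins reach from -1.02 to 1.47.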

How the data were processed

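Stranded mRNA libraries of mouse knee chondrocytes were sequenced, 3 per group. Per the submitters' processing notes, the tools were STAR, RSEM and DESeq2 and the build mm10; for their versions, the annotation and the strand setting, nothing is stated in the labels. The authors deposited for each library a table of 142699 transcripts with an expected count, a TPM value scaled by effective transcript length, and the percent of the gene's abundance held by each transcript (IsoPct), per the file headers; transcript lengths come from the same tables. Of the transcript identifiers 99.1% were in GENCODE M21, and 99.7% of these had the same length there, so its mm10 coordinates were used.

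Expected counts and TPM were summed per gene, and counts were rounded. Genes passing edgeR's filterByExpr (minimum count 10, minimum total 15) were scaled by TMM and tested with group as the only term (edgeR 4.0.16, glmQLFit and glmQLFTest, R 4.3.3), two-sided, with Benjamini-Hochberg adjustment over 14604 genes. CPM use TMM-scaled library sizes. RSEM's uncertainty in shared reads is not modelled. Simulated counts of the M-LPS-EV and M-EV libraries were tested over 14441 genes: calls numbered 22 of 47 genes at a log2 change of 0.25, 42 of 49 at 0.5, 42 of 50 at 1, 50 of 50 at 2, and 14 of 14245 genes with no change. Alternatives were scaling by RLE or upper quartile, omitting the filter or asking for a mean of 50 counts, an offset for effective length, blocking on replicate number, DESeq2 1.42.0, limma-voom and limma-trend (limma 3.58.1) on log2(TPM + 1) and log2(TPM + 0.1), a minimum change of 1.2-fold (glmTreat) and each library left out. Values on the TPM scale are on log2(TPM + 1), which understates changes of low genes. Every member is accounted for; from each other list the called genes with the smallest p, at most 4, and Acan are named, except that some of these genes are not reported here. The members and lists were chosen with earlier results of these data known. Promoter sequences are RefSeq's, build GRCm38.p6. Figures were drawn with matplotlib 3.10.9.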

Additional observations from a re-analysis of the deposited data

How the results depend on the processing

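Of the 19 calls among members, 12 held in all 16 alternatives other than the minimum change, and 3 of them (Papss2, Slc26a2 and Slc35d1) also with it; no called member changed sign in any of the 17. Against a change of at least 1.2-fold 1137 genes in all were called, among members 0 higher and 3 lower, of core proteins 9 higher and 4 lower, of further chain synthesis genes 1 higher and 0 lower, of breakdown enzymes 0 higher and 1 lower, and of hexosamine and nucleotide sugar genes 2 higher and 2 lower. The effective length offset gave 2868 genes in all, 3 members higher, 1 further chain synthesis gene higher and 1 lower, and 3 breakdown enzymes higher. Limma-trend gave 2622 genes on log2(TPM + 1) and 2619 on log2(TPM + 0.1), with 2 members higher, 1 further chain synthesis gene higher and 0 lower, and 3 breakdown enzymes higher on both. DESeq2 gave 3 members higher, 1 further chain synthesis gene higher and 1 breakdown enzyme lower. With no count filter, and with limma-voom, 1 breakdown enzyme was lower. Leaving out each library gave 3978 to 4317 genes in all, 4 to 6 members higher and 11 to 14 lower, 7 to 9 core proteins lower, 1 to 2 further chain synthesis genes higher and 2 to 3 lower, and 1 to 2 breakdown enzymes lower. The cause of these differences was not tested.

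Among the 20 tested members that were not called, 7 changed sign. Xylt2 had -0.0044 with upper-quartile scaling. The length offset, limma-trend on log2(TPM + 1) and limma-trend on log2(TPM + 0.1) gave Chst12 -0.0389, -0.0500 and -0.0513, Ndst1 -0.0166, -0.0299 and -0.0306, and Ndst2 -0.0335, -0.0332 and -0.0337. Leaving out each library gave Xylt2 -0.0220 to 0.0436, B3galt6 -0.0436 to 0.0167, Dsel -0.0343 to 0.0061, Ext1 -0.0238 to 0.0197 and Ndst2 -0.0163 to 0.0586.

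With the replicate block 4519 genes, 6 members higher and 13 lower were called. The labels do not say what the replicate numbers mean. Deviations of same-numbered libraries from their group means correlated at r = -0.009, -0.039 and -0.018, and no library correlated best with its own number. These correlations cover all tested genes, including low ones where counting noise is large, so they cannot exclude a pairing. Depth limits the lowest members: Chst7 rests on 180 and 236 counts, and Chst13 could not be tested.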
